A study of Mus musculus with 20 samples.

Results

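A set of 5 genes was followed in mouse pre-B cells, namely Cyba, Slc20a1, Prkcd, Limd2 and Sdhaf1. They were picked because their transcripts were high in Artemis-deficient lines and lower in 3 other groups, namely RAG-2-deficient lines, lines without the kinase ATM and lines with blocked NF-kB. The members are all probe sets annotated to exactly 1 of these 5 gene symbols, which gave 11 of the 44200 probe sets on the array, for 5 of the 17944 genes named by a probe set. Of the 11, 10 passed the filter on low signals, and the same 10 passed in the lines and in the marrow. The members were thus selected on their levels in the lines, which are given here as a description, without a test. Marrow cells took no part in that choice, and there the genes were tested.

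Lymphocytes assemble their antigen receptor genes with the RAG recombinase, which cuts DNA and leaves hairpin ends that the nuclease Artemis must open before they can be joined. Unrepaired cuts activate the kinase ATM, and ATM signalling can in turn release the transcription factor NF-kB from its IkB inhibitors. The 5 genes have separate roles. Cyba encodes p22phox, the membrane partner that stabilises the gp91phox subunit of the phagocyte NADPH oxidase. Slc20a1 encodes PiT-1, a sodium-dependent phosphate importer. Prkcd encodes protein kinase C delta, a diacylglycerol-responsive kinase with a known role in B cell tolerance. Limd2 encodes a small LIM domain protein that binds integrin-linked kinase. Sdhaf1 encodes an assembly factor that helps to load the iron-sulphur subunit of mitochondrial complex II.

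The genes lie on 5 chromosomes in the RefSeq annotation of GRCm38.p6: Cyba at chr8:122424771-122432940, Slc20a1 at chr2:129198773-129211615, Prkcd at chr14:30595353-30626414, Limd2 at chr11:106156254-106160729 and Sdhaf1 at chr7:30321409-30322375. Their promoters are shown because the 5 genes were chosen in part for lower levels in lines with an NF-kB block. Each window runs from 250 bases before to 50 bases after a RefSeq transcription start, 5′ to 3′ on the gene's strand, and where a gene had several windows the one with the most matches to GGGNNNNNCC is shown. This pattern is a loose form of the kB site, searched on both strands, and its matches are in capitals. The windows are chr8:122432891-122433190 (minus strand) for Cyba, chr2:129198523-129198822 (plus strand) for Slc20a1, chr14:30626159-30626458 (minus strand) for Prkcd, chr11:106160680-106160979 (minus strand) for Limd2 and chr7:30322326-30322625 (minus strand) for Sdhaf1.
Cyba: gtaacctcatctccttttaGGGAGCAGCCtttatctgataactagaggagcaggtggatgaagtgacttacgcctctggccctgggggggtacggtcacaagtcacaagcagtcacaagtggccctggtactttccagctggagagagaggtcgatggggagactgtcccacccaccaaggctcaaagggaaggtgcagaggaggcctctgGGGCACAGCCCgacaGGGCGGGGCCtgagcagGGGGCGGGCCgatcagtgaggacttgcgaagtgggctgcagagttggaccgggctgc
Slc20a1: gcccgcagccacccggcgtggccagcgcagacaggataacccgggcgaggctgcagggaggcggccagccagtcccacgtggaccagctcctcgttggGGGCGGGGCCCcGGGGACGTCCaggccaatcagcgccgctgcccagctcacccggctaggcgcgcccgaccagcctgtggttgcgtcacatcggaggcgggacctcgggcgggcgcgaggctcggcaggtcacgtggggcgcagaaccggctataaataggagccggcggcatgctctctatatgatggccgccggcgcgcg
Prkcd: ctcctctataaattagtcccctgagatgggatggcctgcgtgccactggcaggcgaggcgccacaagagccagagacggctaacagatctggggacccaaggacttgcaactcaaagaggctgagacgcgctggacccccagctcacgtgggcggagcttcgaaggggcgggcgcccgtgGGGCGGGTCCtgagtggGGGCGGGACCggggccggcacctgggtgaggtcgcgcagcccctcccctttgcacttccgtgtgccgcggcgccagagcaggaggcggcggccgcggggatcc
Limd2: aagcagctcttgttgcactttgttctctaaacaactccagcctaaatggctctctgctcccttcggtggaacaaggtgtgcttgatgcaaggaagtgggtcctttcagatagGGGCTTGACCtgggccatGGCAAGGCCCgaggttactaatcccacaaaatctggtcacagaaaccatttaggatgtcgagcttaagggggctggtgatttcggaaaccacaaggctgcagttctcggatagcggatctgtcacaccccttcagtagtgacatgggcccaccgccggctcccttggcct
Sdhaf1: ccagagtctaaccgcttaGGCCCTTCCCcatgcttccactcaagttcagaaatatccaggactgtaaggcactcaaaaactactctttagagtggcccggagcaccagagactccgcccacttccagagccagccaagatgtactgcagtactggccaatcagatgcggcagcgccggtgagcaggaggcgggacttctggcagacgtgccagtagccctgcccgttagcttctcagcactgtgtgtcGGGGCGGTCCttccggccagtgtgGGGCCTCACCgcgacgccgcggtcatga

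The loose pattern was common in promoters of all kinds. It was found in 8 of the 9 windows of the 5 genes and in 50.8% of all 32851 windows of 300 bases. It overlapped the GC box core GGGCGG in the windows of Cyba, Slc20a1, Prkcd and Sdhaf1, and GGGCGG itself was present in 7 of the 9 windows and 35.7% of all windows. The stricter kB consensus was matched in 0 of the 9 windows and in 8.46% of all windows. CCAAT was present in 3 of the 9 windows and 37.4% of all windows, among them the windows shown for Slc20a1 and Sdhaf1. The windows shown had a G and C content of 60.7% for Cyba, 73% for Slc20a1, 69.3% for Prkcd, 53.3% for Limd2 and 60% for Sdhaf1, with a median of 52.7% over all windows. A match describes letters in the window and is not evidence of binding.

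Transcripts were measured on 20 arrays. The 5 groups of lines were v-abl-transformed pre-B cells held for 48 hours in 3 uM STI571 (imatinib), an inhibitor of the v-abl kinase, and the arrest it causes is known to induce RAG. RAG-2-deficient lines (n = 3) cannot be cut by RAG and were the control, wild type lines (n = 3) both make and repair the cuts, and Artemis-deficient lines (n = 3) cut without opening the hairpins. Artemis- and ATM-deficient lines (n = 2, each the mean of 2 technical arrays) lacked ATM as well, and a further Artemis-deficient group expressed a dominant negative IkB (n = 3, IkB-DN lines below), which holds NF-kB inactive. Marrow pre-B cells came from IgH-transgenic mice that were either Artemis-deficient (n = 2) or RAG-1-deficient (n = 2, the control), and their RNA was taken at once, with no STI571 step in the labels. Precision is limited by the number of arrays.

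Some samples stood apart from their labels or their groups. The titles of the RAG-2-deficient lines hold the letters Bcl, which their source descriptions do not explain, and the title of the third wild type line holds the letters ATM although its source is wild type. Replicates of the IkB-DN lines correlated at 0.976 to 0.983 over probe sets, near the values of technical arrays (0.982 and 0.984). Replicates of the wild type, RAG-2-deficient and Artemis-deficient lines correlated at 0.902 to 0.947. The labels do not say whether the IkB-DN samples were separate lines. Summed signals of 11 pre-B markers lay between 24127 and 38911.5 in the line samples, and all 11 passed the filter on low signals.

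Levels below are log2 of the signal plus a pseudocount, and differences are log2 differences with the standard error (SE) of the fit. Levels are compared within a probe set and never between probe sets. In cells measured in bulk, fewer cells with a transcript and less transcript per cell cannot be told apart.

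Cyba was high in the Artemis-deficient and wild type lines and low in the other 3 groups of lines. The 3 Artemis-deficient lines had Cyba levels of 10.17, 10.02 and 10.63, and the 3 wild type lines had 10.38, 9.58 and 9.55. The RAG-2-deficient lines had 8.51, 8.37 and 8.54, the Artemis- and ATM-deficient lines 8.43 and 8.31, and the IkB-DN lines 8.97, 8.63 and 8.76. No wild type or Artemis-deficient line overlapped a line of the other 3 groups, while the wild type and Artemis-deficient groups overlapped each other. Artemis-deficient lines exceeded RAG-2-deficient lines by 1.80 ± 0.21 (3.48-fold), ATM-deficient lines by 1.90 ± 0.24 and IkB-DN lines by 1.49 ± 0.21. Wild type lines exceeded RAG-2-deficient lines by 1.36 ± 0.21. The ATM-deficient lines differed from the RAG-2-deficient lines by -0.10 ± 0.24, with overlapping values, and the IkB-DN lines by 0.31 ± 0.21, each of them above every RAG-2-deficient line.

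Slc20a1 had the same highest group, but wild type lines were intermediate and the level without ATM stayed above the control. On its main probe set (1448568_a_at, the probe set of the gene with the highest mean level in the lines) the Artemis-deficient lines had 8.46, 9.15 and 9.01 and the wild type lines 7.64, 7.76 and 8.18. The RAG-2-deficient lines had 6.81, 6.80 and 6.51, the ATM-deficient lines 7.10 and 7.65, and the IkB-DN lines 7.22, 7.27 and 7.11. Every sample of the other 4 groups lay above every RAG-2-deficient line, and every Artemis-deficient line lay above all others. The Artemis-deficient mean exceeded that of RAG-2-deficient lines by 2.17 ± 0.21 (4.49-fold), ATM-deficient lines by 1.50 ± 0.23 and IkB-DN lines by 1.67 ± 0.21. Relative to RAG-2-deficient lines, the difference was 1.16 ± 0.21 in wild type, 0.67 ± 0.23 in ATM-deficient and 0.49 ± 0.21 in IkB-DN lines. With only the first ATM-deficient line the difference was 0.39, and with only the second it was 0.94. The second probe set, 1438824_at, ordered the groups alike on average, with 4.94 to 5.70 in RAG-2-deficient and 7.35 to 8.55 in Artemis-deficient lines and a difference of 2.65 ± 0.28. The third, 1446441_at, lay between 2.73 and 4.78 in the lines and did not pass the filter.

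Sdhaf1 was high in the Artemis-deficient lines and close to the control in the groups without ATM or NF-kB activity. Its single probe set gave 8.21, 8.16 and 8.50 in Artemis-deficient and 7.57, 7.27 and 7.52 in wild type lines. The RAG-2-deficient lines had 7.03, 7.20 and 6.95, the ATM-deficient lines 7.06 and 7.01, and the IkB-DN lines 7.23, 7.07 and 7.10. All Artemis-deficient lines lay above all wild type lines, which lay above all others, and the last 3 groups overlapped apart from ATM-deficient against IkB-DN lines. On average, Artemis-deficient lines exceeded RAG-2-deficient lines by 1.23 ± 0.13 (2.34-fold), ATM-deficient lines by 1.26 ± 0.15 and IkB-DN lines by 1.15 ± 0.13. The wild type difference from RAG-2-deficient lines was 0.39 ± 0.13, against -0.03 ± 0.15 in ATM-deficient and 0.07 ± 0.13 in IkB-DN lines.

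Limd2 had a smaller difference from the control, and its lowest group was the one without ATM. On the main probe set (1456377_x_at) the Artemis-deficient lines had 12.15, 12.18 and 12.23 and the wild type lines 11.99, 11.89 and 11.62. The RAG-2-deficient lines had 11.51, 11.67 and 11.70, the IkB-DN lines 11.82, 11.79 and 11.82, and the ATM-deficient lines 11.03 and 10.88. The ATM-deficient lines lay below every other line, the Artemis-deficient lines above every other line, and wild type lines overlapped both the RAG-2-deficient and the IkB-DN lines. Artemis-deficient lines exceeded RAG-2-deficient lines by 0.56 ± 0.09 (1.47-fold), ATM-deficient lines by 1.23 ± 0.10 and IkB-DN lines by 0.38 ± 0.09. ATM-deficient lines differed from RAG-2-deficient lines by -0.67 ± 0.10 and IkB-DN lines by 0.18 ± 0.09, each IkB-DN line above every RAG-2-deficient line.

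The other probe sets of Limd2 followed the main one, with wider differences. On 1429104_at the Artemis-deficient lines had 10.72, 10.89 and 10.97, the RAG-2-deficient lines 9.58, 9.89 and 9.95, the ATM-deficient lines 9.20 and 8.90 and the IkB-DN lines 10.21, 10.16 and 10.14. Artemis-deficient lines exceeded RAG-2-deficient lines by 1.05 ± 0.14 and ATM-deficient lines by 1.81 ± 0.15 on this probe set. The dimmer 1447766_x_at and 1460738_at gave 1.23 ± 0.33 and 0.80 ± 0.19 against RAG-2-deficient lines, and 2.26 ± 0.37 and 1.58 ± 0.21 against ATM-deficient lines. On all 4 probe sets the ATM-deficient lines were below every RAG-2-deficient line.

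Prkcd differed more from the lines without ATM or with blocked NF-kB than from the lines without RAG cuts, so that the label of a gene raised by breaks holds for it only in part. On the main probe set (1422847_a_at) the Artemis-deficient lines had 9.85, 9.54 and 9.68 and the wild type lines 9.45, 9.73 and 9.33. The RAG-2-deficient lines had 9.51, 8.84 and 8.92, the ATM-deficient lines 8.63 and 8.14, and the IkB-DN lines 8.80, 8.64 and 8.56. The lowest Artemis-deficient line (9.54) and the highest RAG-2-deficient line (9.51) nearly met, whereas the ATM-deficient and IkB-DN lines were all below every RAG-2-deficient line. Artemis-deficient lines exceeded RAG-2-deficient lines by 0.60 ± 0.19 (1.52-fold), ATM-deficient lines by 1.30 ± 0.21 and IkB-DN lines by 1.02 ± 0.19. Against RAG-2-deficient lines the difference was 0.41 ± 0.19 in wild type, -0.70 ± 0.21 in ATM-deficient and -0.42 ± 0.19 in IkB-DN lines.

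On the second probe set of Prkcd, 1442256_at, the Artemis-deficient lines had 8.10, 7.95 and 8.08 and overlapped the RAG-2-deficient lines, with 8.19, 7.24 and 7.57. The first RAG-2-deficient line was the highest of its group on both probe sets. The excess of Artemis-deficient over RAG-2-deficient lines was 0.38 ± 0.21 on this probe set, over ATM-deficient lines 1.25 ± 0.24 and over IkB-DN lines 0.79 ± 0.21. Without the first RAG-2-deficient line the difference on the main probe set was 0.81, and without the second it was 0.47. The first line also had the highest sum of 4 plasma cell markers of all lines, 7140 against 1529 and 1113 in its group. Its pre-B marker sum of 24127 was the lowest of all lines. Any bearing of these sums on the Prkcd levels was not tested.

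**Figure D1:**
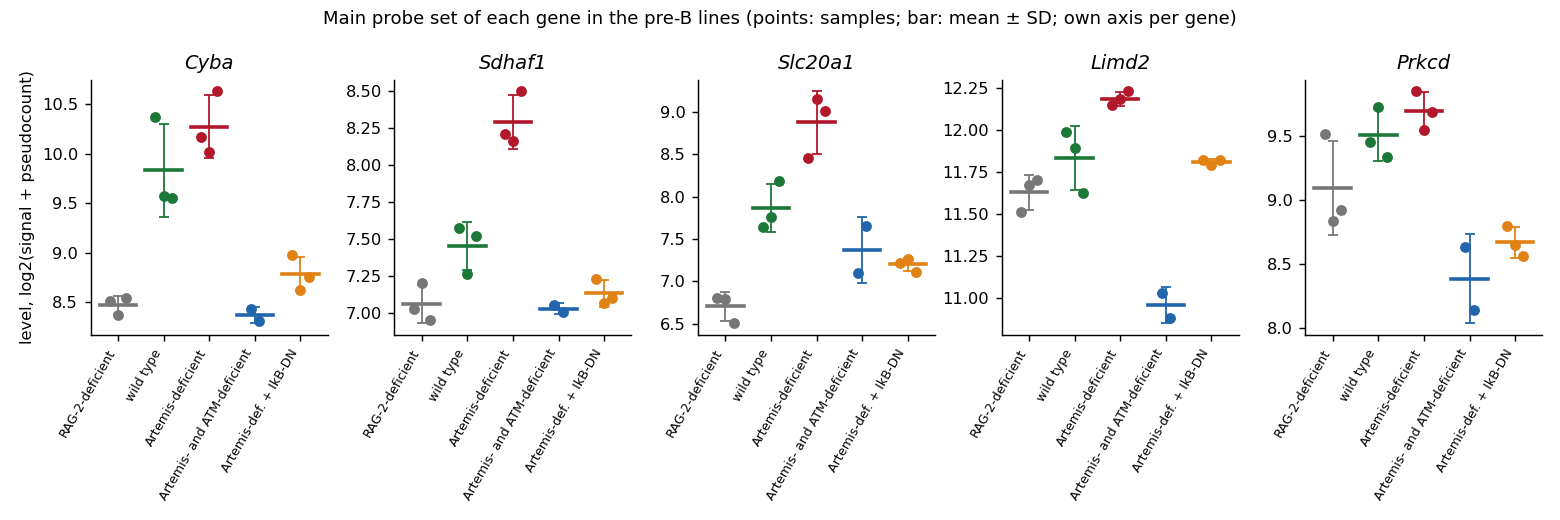
Level of the main probe set of each gene, as log2 of signal plus pseudocount, in the 5 groups of lines; points are samples (the mean of 2 arrays for Artemis- and ATM-deficient lines), the bar is the group mean and the whisker the SD, and each gene has its own axis. The Artemis-deficient group has the highest mean for all 5 genes. The Artemis- and ATM-deficient group has the lowest mean for all except Slc20a1, with values that overlap the RAG-2-deficient lines for Cyba and Sdhaf1.

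The comparison of wild type with RAG-2-deficient lines asked what cuts that can be rejoined did to the same genes. All 10 member probe sets had a positive difference, from 0.21 for Limd2 to 1.44 ± 0.28 for the second probe set of Slc20a1. The wild type group lay wholly above the control for 4 of the 10 probe sets (Cyba, both of Slc20a1 and Sdhaf1), against 7.51% of all. Limd2 and Prkcd overlapped the control on every probe set. The comparison shares its control lines with a contrast that selected the genes, so these counts describe the samples and are no independent support. Without the first wild type line, whose Cyba level of 10.38 was the highest of the 3, the Cyba difference was 1.09.

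The groups without ATM and with blocked NF-kB were then set against the shared control and against each other. Every ATM-deficient sample lay below every RAG-2-deficient line for 6 of the 10 probe sets, the 4 of Limd2 and the 2 of Prkcd, against 15.0% of all probe sets. It lay above for both probe sets of Slc20a1. The IkB-DN lines lay above every RAG-2-deficient line for 5 of 10, against 18.4% of all: Cyba, both probe sets of Slc20a1 and 2 of Limd2. These groups took part in the choice of the genes, so the counts describe the samples and are no independent support. Probe sets of the same gene do not count as separate support either.

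Between the ATM-deficient and IkB-DN lines, Limd2 differed most. The difference of ATM-deficient minus IkB-DN lines was -0.86 ± 0.10 on its main probe set and -1.12 ± 0.15, -1.12 ± 0.37 and -1.04 ± 0.21 on the others. For the other genes it was -0.41 ± 0.24 for Cyba, -0.28 ± 0.21 for Prkcd, -0.10 ± 0.15 for Sdhaf1 and 0.17 ± 0.23 for Slc20a1, with 95% intervals that all include 0. The Slc20a1 interval ran from -0.34 to 0.68 and that of Sdhaf1 from -0.42 to 0.22. Differences of those sizes could not be told from none with these samples. The genes were chosen for low levels in both groups, so these intervals give the precision only and are no test. In all, 7 of the 10 probe sets were wholly lower in ATM-deficient lines, against 24.0% of all probe sets. This count too comes from groups that chose the genes and is no independent support. The 2 technical arrays of an ATM-deficient line differed by 0.00457 to 0.335 on the main probe sets, the largest value being for Cyba in the second line.

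**Figure D2:**
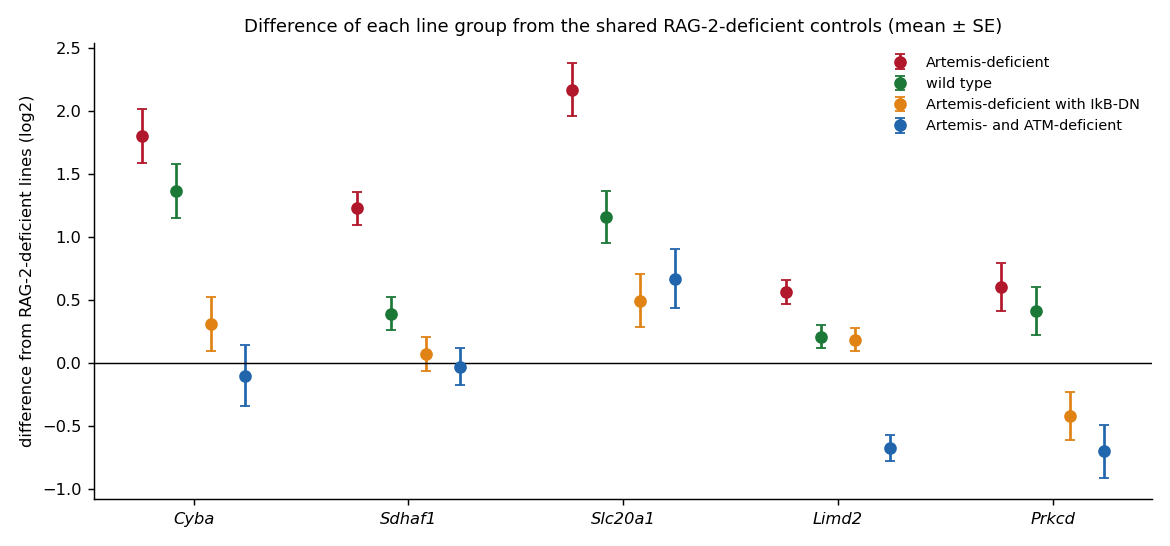
Difference of each line group from the shared RAG-2-deficient controls, in log2 with the SE of the fit, for the main probe set of each gene. Artemis-deficient lines are above 0 for all 5 genes (0.56 to 2.17), whereas Artemis- and ATM-deficient lines are below 0 for Limd2 (-0.67) and Prkcd (-0.70) and above it for Slc20a1 (0.67).

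The genes resembled each other to different degrees. Over the 14 line samples, Pearson's r between main probe sets was 0.902 for Slc20a1 and Sdhaf1, 0.890 for Cyba and Sdhaf1 and 0.821 for Cyba and Slc20a1. It was lowest, at 0.526, for Slc20a1 and Limd2. Probe sets of the same gene correlated at 0.817 to 0.984. These values are descriptions without a test, and the samples share arrays, group structure and the choice of the genes.

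Among the main probe sets of 9494 genes, those nearest in pattern to Cyba were Nfkbid (r = 0.953), Nfkbie (0.932) and Zfp275 (0.913). Nfkbid and Nfkbie both encode proteins of the IkB family. Nearest to Sdhaf1 were Nfkbie (0.955), Swap70 (0.947) and the NF-kB subunit gene Nfkb2 (0.915). Nearest to Slc20a1 were Sdhaf1 itself, Nfkbie (0.867) and Lars (0.841), a leucyl-tRNA synthetase. Limd2 was nearest to Vars (0.931), a valyl-tRNA synthetase, to Psmg4 (0.890), a proteasome assembly chaperone, and to Arhgap17 (0.877). Prkcd was nearest to the survival kinase Pim2 (0.936), to Zmiz2 (0.905) and to Relb (0.862). These correlations run over the same line samples whose levels chose the members. Any gene with the pattern used for that choice would rank near them. The NF-kB genes named here thus describe the samples and are no independent support for a link to NF-kB.

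The partners of each gene product were read from 5 lists, to see whether a change in the gene was shared by its complex or family. A gene counts by its probe set with the highest mean level, and a call is an adjusted p below 0.05 in limma. Between Artemis-deficient lines and the RAG-2-deficient control, 0 of the tested partners were called by limma in either direction: 0 of 6 for the NADPH oxidase, 0 of 7 for complex II, 0 of 3 phosphate carriers, 0 of 6 LIM and integrin-linked kinase partners and 0 of 8 protein kinases C and D. At an unadjusted p below 0.05 the numbers were 2, 2, 1, 1 and 0, beside 13.7% of all probe sets tested. The medians of these lists were 0.05, -0.00115, 0.14, 0.12 and -0.40, beside -0.01 over all probe sets tested.

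Cybb, the gene for gp91phox and so the direct partner of p22phox, had the widest difference among the oxidase genes. Its levels were 9.86, 9.38 and 10.54 in Artemis-deficient and 6.26, 6.87 and 5.37 in RAG-2-deficient lines, without overlap, and it differed by 3.76 ± 0.84 (adjusted p = 0.0579, limma). The ATM-deficient lines had 9.28 and 6.08 and the IkB-DN lines 8.98, 8.97 and 9.28, so that Cybb did not follow Cyba in the IkB-DN lines. The next widest difference was that of Cybc1, which encodes a chaperone needed for gp91phox and p22phox (-0.57 ± 0.13, adjusted p = 0.0696, limma). For Cybc1 every Artemis-deficient line lay below every line of the other groups. Cybb is also a marker of monocytes and neutrophils, and it carried most of the summed signal of 9 such markers in the Artemis-deficient lines, 814 to 1831 against 150 to 240 in RAG-2-deficient lines. Without Cybb the other 8 summed to 139 to 353 in Artemis-deficient, 104 to 170 in RAG-2-deficient, 126 to 362 in wild type, 228 to 892 in ATM-deficient and 637 to 770 in IkB-DN lines. S100a8, S100a9, Mpo and Cd14, also on that list, reached at most 3.87 in any line and did not pass the filter. The dendritic and erythroid markers did not pass it either. Lyz2, a further marker on the list, was lower in Artemis-deficient than in the IkB-DN lines (-3.40 ± 0.44, adjusted p = 0.00490). The 7 T and NK markers summed to 47 to 137 in Artemis-deficient, 188 to 283 in RAG-2-deficient and 442 to 618 in IkB-DN lines, and the only one that passed the filter, Klrd1, was called lower in Artemis-deficient against IkB-DN lines (-3.97 ± 0.78, adjusted p = 0.0290). The part of other cell types in the Cyba levels of the lines was not tested.

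The complex II genes had small differences beside the 1.23 of Sdhaf1. Sdhaf2, which flavinates the catalytic subunit, differed by -0.40 ± 0.16 between Artemis-deficient and RAG-2-deficient lines (adjusted p = 0.292), and Sdhaf4, another assembly factor, by 0.33 ± 0.63 (adjusted p = 0.871). The 4 structural subunits Sdha to Sdhd lay between -0.10 and 0.30. Of the phosphate carriers, Slc20a2, which encodes the related importer PiT-2, differed by 0.59 ± 0.18 (adjusted p = 0.155) and the exporter gene Xpr1 by -0.27 ± 0.16 (adjusted p = 0.500).

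Limd2 and Prkcd had no called partner in that comparison. The LIM domain genes Lima1 and Limd1 differed by 0.80 ± 0.86 (adjusted p = 0.743) and 0.31 ± 0.09 (adjusted p = 0.146). Of the kinases, Prkch differed by -1.76 ± 0.96 (adjusted p = 0.461) and Prkcq by -0.78 ± 0.40 (adjusted p = 0.435), and Prkch spread from 4.31 to 7.35 within the Artemis-deficient lines.

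In the other line comparisons, 2 partners of the 5 lists were called. Both were lower in the Artemis-deficient lines than in the IkB-DN lines, a direction in which 1.03% of all probe sets were called. Limd1 was 9.28, 9.34 and 9.39 in Artemis-deficient and 10.16, 10.02 and 9.99 in IkB-DN lines and was lower by 0.72 ± 0.09 (adjusted p = 0.00438). Its means were 9.03 in RAG-2-deficient, 9.17 in wild type and 9.08 in ATM-deficient lines, and every IkB-DN line lay above every line of the other groups. Cybc1, whose Artemis-deficient values also lay below those of the other groups, was 9.32, 9.34 and 9.14 against 9.54, 10.06 and 10.04. It was lower by 0.61 ± 0.13 (adjusted p = 0.0398). With the IkB-DN samples averaged into 1 sample, calls over the whole array in this comparison dropped from 439 to 5. In Artemis-deficient against ATM-deficient lines and in wild type against RAG-2-deficient lines, limma called 0 members of these lists. At an unadjusted p below 0.05 there were 4 and 5 of 30, beside 9.69% and 12.4% of all probe sets.

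Part of a list of NF-kB feedback and subunit genes, which also holds Birc3, Traf1 and Icam1, was called in the same line comparisons. In Artemis-deficient against RAG-2-deficient lines, where 0.685% of all 21759 probe sets were called higher, 5 of 9 were, led by Nfkbie (2.04 ± 0.17), the A20 gene Tnfaip3 (1.67 ± 0.25), Relb (1.10 ± 0.18) and Nfkb2 (0.78 ± 0.17). Against ATM-deficient lines (0.212% of all) 2 of 10 were called higher, Nfkbie (2.15 ± 0.19) and Relb (2.04 ± 0.20). Against IkB-DN lines (0.993% of all) 5 of 10 were, led by Relb (2.55 ± 0.18), Nfkbie (2.22 ± 0.17), Nfkbia (1.17 ± 0.18) and the cIAP2 gene Birc3 (1.14 ± 0.20). In wild type against RAG-2-deficient lines, where 0.405% of all probe sets were called higher, 1 of 9 was, Nfkbie (0.96 ± 0.17). These counts take 1 probe set per gene, and the choice matters for Nfkb2: another of its probe sets was called in all 3 contrasts of the Artemis-deficient lines, with 3.17 against RAG-2-deficient, 3.17 against ATM-deficient and 3.26 against IkB-DN lines. The list was chosen with earlier results of these data known, and its counts are no independent evidence of direction.

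**Figure D3:**
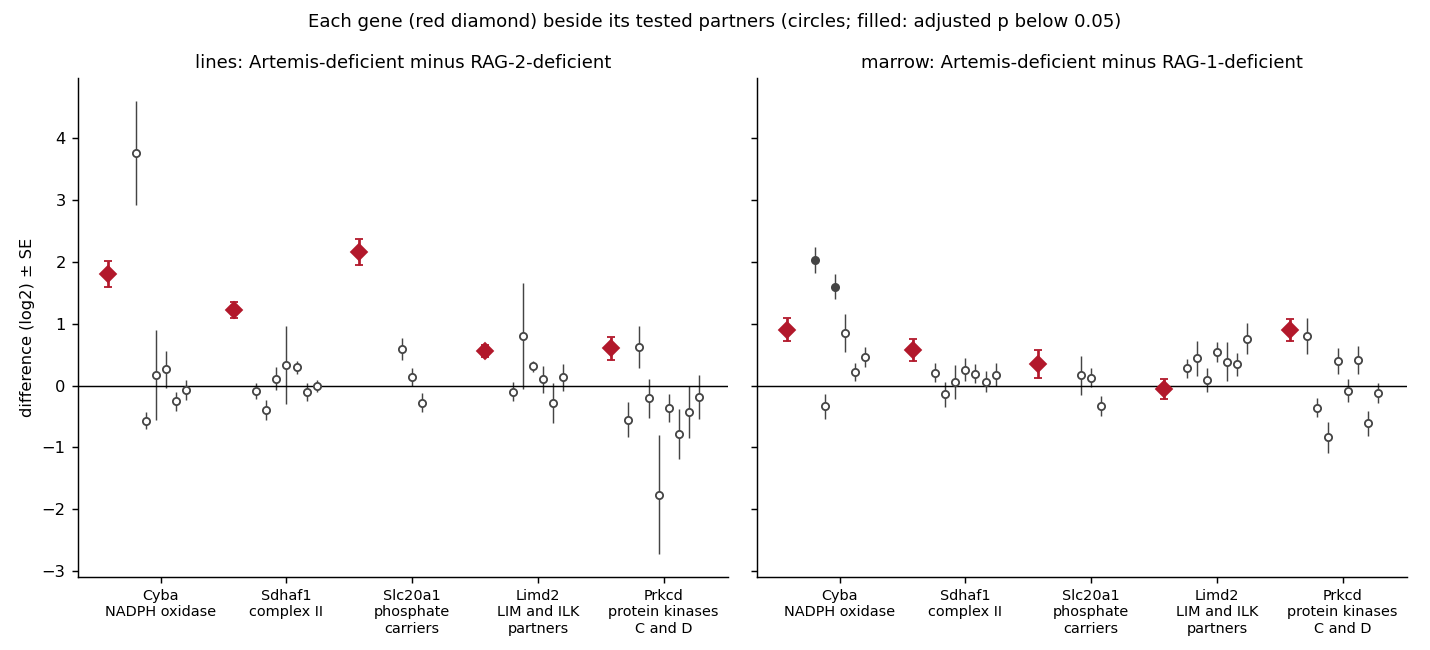
Log2 difference with its SE for each of the 5 genes (red diamonds, main probe set) and for the tested partners of its product (circles, filled where the adjusted p was below 0.05), in Artemis-deficient minus RAG-2-deficient lines on the left and in Artemis-deficient minus RAG-1-deficient marrow cells on the right. On the left no partner is filled and Cybb stands highest at 3.76; on the right Cybb (2.03) and Ncf1 (1.60) are filled.

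The marrow samples gave the test of the 5 genes in cells that did not choose them, asking whether the difference between Artemis-deficient and cut-free cells is also seen in pre-B cells taken from mice. None was called: limma called 0 of the 10 member probe sets higher, against 1.78% of all 19473 tested, and 0 lower, against 0.734%. At an unadjusted p below 0.05 there were 4, all higher, against 16.8% of all probe sets in either direction. The same number, for Cyba, Sdhaf1 and both probe sets of Prkcd, lay wholly above the control, against 23.5% of all probe sets. Over the 10 probe sets 7 differences were positive.

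Cyba and Prkcd had the largest differences in the marrow. Cyba was 11.72 and 11.94 in Artemis-deficient and 10.72 and 11.13 in RAG-1-deficient cells and differed by 0.91 ± 0.19 (1.87-fold, adjusted p = 0.0587, limma). Prkcd was 10.41 and 10.26 against 9.27 and 9.61 on its main probe set and differed by 0.90 ± 0.18 (1.86-fold, adjusted p = 0.0527). Its second probe set gave 9.18 and 8.59 against 7.47 and 7.91, a difference of 1.20 ± 0.26 (adjusted p = 0.0629). Values of the groups did not overlap on these probe sets. With another scaling of the arrays both genes were called: quantile normalization gave 0.85 for Cyba and 0.88 for Prkcd, and median centring 0.87 and 0.86. Over all alternatives the adjusted p ran from 0.0307 to 0.360 for Cyba and from 0.0288 to 0.350 for Prkcd. Without the first RAG-1-deficient sample 0 probe sets were called over the whole array, and without the second Artemis-deficient sample 2 member probe sets were.

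Sdhaf1, Slc20a1 and Limd2 had smaller differences. Sdhaf1 was 8.54 and 8.55 in Artemis-deficient and 7.88 and 8.05 in RAG-1-deficient cells and differed by 0.58 ± 0.18 (adjusted p = 0.168). Slc20a1 was 9.32 and 8.96 against 9.04 and 8.56, overlapping, and differed by 0.34 ± 0.23 (adjusted p = 0.508, 95% interval -0.19 to 0.87), while its second probe set gave -0.08 ± 0.32. Without the second RAG-1-deficient sample the main value was 0.11, and without the first it was 0.58. Limd2 was 12.56 and 12.39 against 12.47 and 12.59, also overlapping. It differed by -0.05 ± 0.16 (adjusted p = 0.902, 95% interval -0.42 to 0.31). The other 3 probe sets of Limd2 gave differences between -0.30 and 0.05.

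**Figure D4:**
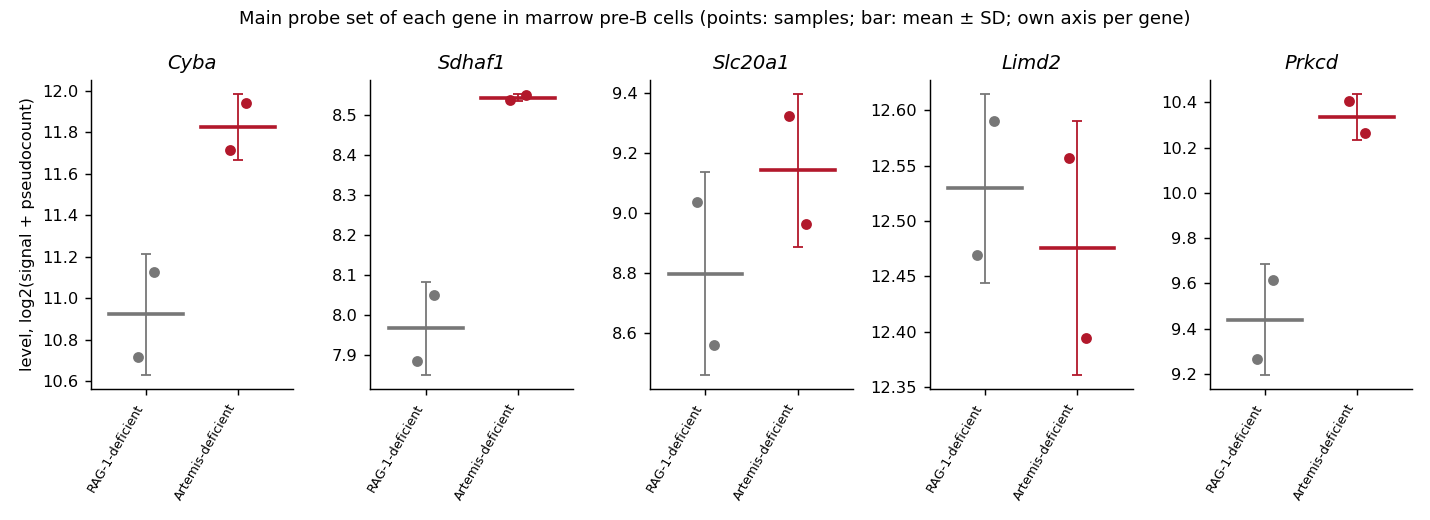
Level of the main probe set of each gene, as log2 of signal plus pseudocount, in the marrow pre-B cells of RAG-1-deficient and Artemis-deficient mice; points are samples (n = 2 per group), with the mean and SD, and each gene has its own axis. The groups do not overlap for Cyba, Sdhaf1 and Prkcd and overlap for Slc20a1 and Limd2.

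In the marrow, 2 oxidase partners of Cyba were higher in the Artemis-deficient cells. Cybb was 12.17 and 12.57 against 10.12 and 10.56 and rose by 2.03 ± 0.21 (adjusted p = 0.0228), and Ncf1, the p47phox gene, was 10.61 and 10.81 against 8.87 and 9.36 and rose by 1.60 ± 0.20 (adjusted p = 0.0258). They were the 2 called of 6 oxidase genes, against 1.78% of all probe sets called higher. The median difference of the 6 was 0.66, beside -0.01 over all probe sets. In the other lists limma called 0 of 7 complex II genes and 0 of 3 phosphate carriers. It called 0 of 7 LIM and integrin-linked kinase partners and 0 of 8 kinases. At an unadjusted p below 0.05 these lists had 0, 0, 2 and 4, beside 16.8% of all probe sets. The widest differences there were Sdhaf4 at 0.26 ± 0.18, Xpr1 at -0.33 ± 0.16, Rsu1 at 0.76 ± 0.25 and Prkce at -0.84 ± 0.25. Of the NF-kB list 4 of 11 were called higher, against 1.78% of all probe sets. They were Nfkbie (1.64 ± 0.27), Bcl3 (1.49 ± 0.27), Tnfaip3 (1.20 ± 0.19) and Icam1 (1.18 ± 0.21). This list was chosen with earlier results of these data known. The part of other cell types in the differences of its genes was not tested.

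Markers of other cell types moved with the same marrow groups. Of 9 neutrophil and monocyte markers 2 were called higher in Artemis-deficient samples, Cybb and Lyz2 (1.05 ± 0.16, adjusted p = 0.0293), against 1.78% of all probe sets. The summed signal of the 9 was 51742 to 56682.9 against 28626.9 to 41035.7. All 4 tested dendritic markers were called higher, beside the same 1.78% of all probe sets. Among them were Siglech (2.58 ± 0.38) and Ccr9 (2.42 ± 0.44), and the dendritic sums were 5491 to 7017 against 1035 to 2033. The summed signal of 7 T and NK markers was 5339 to 6317 against 3015 to 4050, with no call. Summed pre-B markers were lower, at 14472 to 20712.6 against 30801.3 to 34802.4. Of the 11, 2 were called lower, Vpreb1 (-1.33 ± 0.23) and Rag1 (-2.00 ± 0.22), against 0.734% of all probe sets. Rag1 is itself the gene the control mice are deficient in, so it cannot serve as a pre-B marker between these genotypes, and it is also in the sum. Among the 11, 1 had a positive difference, of 1.09. Erythroid markers summed to 426 to 772 against 987 to 1008. Cyba, Cybb and Prkcd transcripts are known from phagocytes too, and the part of these other cells in the marrow differences of Cyba and Prkcd was not tested.

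**Figure D5:**
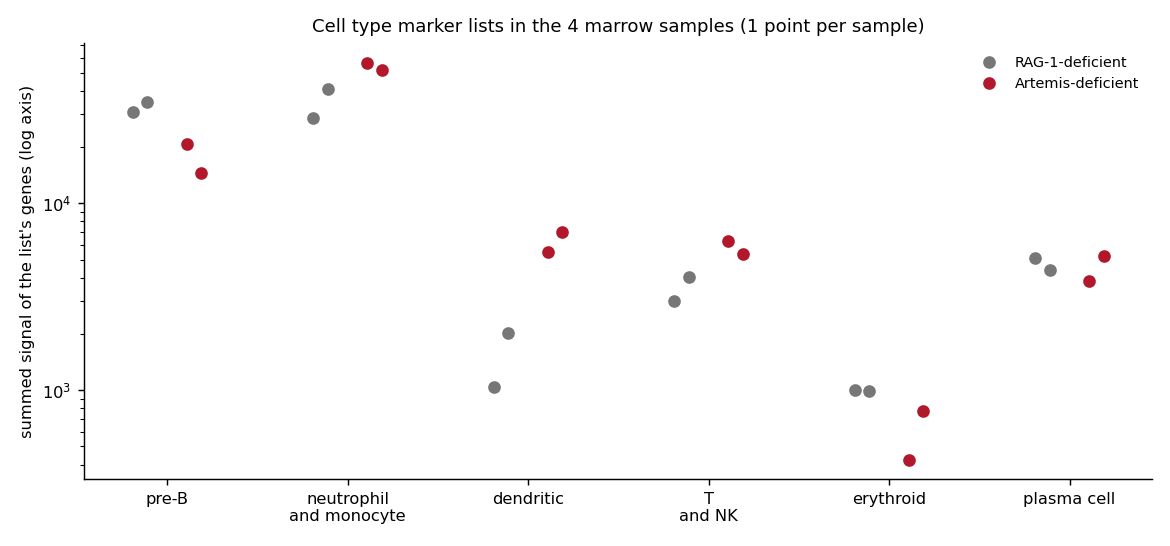
Summed signal of 6 lists of cell type markers in the 4 marrow samples, on a log axis with 1 point per sample. The Artemis-deficient samples are lower for pre-B and erythroid markers and higher for neutrophil and monocyte, dendritic, and T and NK markers, without overlap, and the groups overlap for plasma cell markers.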

How the data were processed

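The authors deposited 1 normalized value per probe set and array as log10 signals. No label names the base, which was inferred from the range of the values. Per the submitters' processing notes, arrays were read with GeneChip Operating Software 1.2.0.037. The sources used here name no summary method or scaling. Signals were restored from log10, raised by a pseudocount (the 25th percentile, 6 in the lines and 11 in the marrow) and taken to log2. Empty cells (14.7%) stayed empty. Probe sets reaching their array's median signal in at least 2 samples were kept: 21936 in the lines and 19520 in the marrow. Lines and marrow, whose medians differed (26.8 to 27.7 and 46.9 to 47.8), were fitted apart.

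Differences came from limma 3.58.1 in R 4.3.3 (lmFit, eBayes with intensity trend), with all 5 line groups in 1 fit. Two-sided p-values were adjusted by Benjamini-Hochberg over all probe sets tested. The series design calls the samples biological replicates and says no more about their cultures. The p-values thus set a difference against the spread between these samples. In the lines that spread includes the IkB-DN samples, which may not be separate lines. Of the probe sets 34294 named 1 gene, 916 several and 8990 none, and only the first were named. Promoter sequences are RefSeq's (GRCm38.p6). Members, gene lists and marker lists were chosen with earlier results of these data known. All probe sets of the 5 genes are described. Of each partner list up to 4 called genes are named, or up to 2 with the largest change, and for each member the 3 genes closest in pattern. The fits were tested on simulated data. Alternatives varied the pseudocount, filter, normalization, variance model, samples in the fit and replicates. Figures were drawn with matplotlib 3.10.9.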

Additional observations from a re-analysis of the deposited data

Results flagged for a closer look

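On 2 of the 4 Limd2 probe sets, the lines without ATM and the lines with blocked NF-kB lay on opposite sides of the RAG-2-deficient control. On 1456377_x_at every IkB-DN line lay above and every Artemis- and ATM-deficient line below every RAG-2-deficient line, and the means of the former groups were 0.857 apart on the log2 scale. On 1429104_at the same held with 1.12 between the means. The IkB-DN lines differed from the control by 0.18 ± 0.09 and 0.36 ± 0.14 on these probe sets, and by 0.09 ± 0.33 and 0.27 ± 0.19, with overlapping values, on 1447766_x_at and 1460738_at. These differences are descriptions without a call, since the compared groups took part in the choice of the gene.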

How the results depend on the processing

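The differences of the 5 genes in 8 comparisons were recomputed under the alternatives, giving 600 values. In the lines these carry no call, and 3 small differences moved by more than the replicate spread or changed sign. In the marrow 9 values of Cyba or Prkcd passed the threshold, and the other 588 values in all did neither. Member probe sets called higher in the marrow numbered 0, against 1 with the pseudocount at the 50th percentile, 3 with no filter, 2 with quantile normalization, 2 with median centring and 0 to 2 without 1 sample. Probe sets called in the marrow numbered 489, against 758 with no filter, 14 with no intensity trend and 0 (without the first RAG-1-deficient sample) to 1380 (without the second Artemis-deficient sample). In the lines, fitting only the compared groups changed the calls of Artemis-deficient against RAG-2-deficient lines from 249 to 103, against ATM-deficient lines from 61 to 22, against IkB-DN lines from 439 to 821, and of wild type against RAG-2-deficient lines from 172 to 29. With the IkB-DN samples averaged into 1 sample, the same counts were 81, 25, 5 and 42. Without 1 sample in turn they ran from 92 to 200, from 29 to 66, from 59 to 1062 and from 69 to 305. The cause of these shifts was not tested, apart from the fewer samples that some alternatives hold. No paired analysis was possible because no label says that a number in the titles is shared between groups. Signal limits the dimmest member, the Slc20a1 probe set 1446441_at, which was not tested.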
